A study of Mus musculus with 4 samples.

Results

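The 3 alpha actin genes, Acta1, Acta2 and Actc1, were followed through 4 RNA sequencing libraries of cultured mouse myoblasts. They were taken by symbol from a deposited table of 3760 genes, and all 3 symbols were found. The cells were myoblasts from adult C57BL/6 skeletal muscle that the labels call Twist2-positive. Retrovirus was left on them for 24 h, and 24 h in growth medium (20% FBS) followed. One virus carried green fluorescent protein (GFP) and the other Twist2 together with GFP, so both groups carry GFP. Cells were harvested then, or after 5 days in differentiation medium with 2% horse serum. Each virus was thus sampled in growth and in differentiation medium, which makes 4 groups of 1 library. The number of cultures or animals behind a library is not stated in the labels.

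Actins are the globular proteins that polymerise into filaments. Alpha actins form the thin filaments of muscle, on which myosin pulls, whereas the beta and gamma cytoplasmic forms serve the cytoskeleton of all cells. Acta1 encodes the form that dominates adult skeletal muscle, Actc1 the form of adult heart, and Acta2 the form of smooth muscle, which is also used as a marker of myofibroblasts. Developing and cultured skeletal muscle is known to express all of them. Serum response factor (SRF), which binds the CArG box, is a well-known activator of all 3 genes. The myogenic factors MyoD and myogenin, and Twist proteins, belong to the basic helix-loop-helix family that binds E-boxes.

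In the GENCODE M21 annotation of GRCm38 the genes lie on 3 chromosomes, all on the minus strand. Acta1 spans chromosome 8, 123891769 to 123894751, with 7 exons in its longest transcript of 1446 bases. Acta2 spans chromosome 19, 34241090 to 34255590, with 9 exons and 2035 bases. Actc1 spans chromosome 2, 114047282 to 114053548, with 7 exons and 1473 bases. The coding sequences are equally long, 1131 bases without the stop codon, and alike enough to ask whether reads could be shared out between the genes. Acta1 and Actc1 were identical at 86.3% of coding bases, Acta1 and Acta2 at 85.4%, and Acta2 and Actc1 at 82.6%.

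The longest run of identical coding bases was 29 for Acta1 with Acta2, 29 for Acta1 with Actc1 and 23 for Acta2 with Actc1. No window of 36 or more bases of one alpha actin transcript occurred unchanged in another. Some windows were shared with other genes of the annotation. For windows of 50 bases this held for 2.22% of Acta1 (31 of 1397), 0.352% of Acta2 (7 of 1986) and none of the 1424 of Actc1. For windows of 36 bases the shares were 3.54%, 1.05% and 0.209%, and for 100 bases there were none. The partners of Acta1 included Actb, and those of Acta2 included Actg1 and Actg-ps1. The comparison used exact matches only, and neither the read length nor the treatment of multiply aligned reads is stated in the labels. Acta1 lies inside the span of Gm20388 and Actc1 inside that of A530058N18Rik, both on the opposite strand. The strand setting of the count is likewise not given, so reads of such partners cannot be told apart from those of the actins.

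**Figure D1:**
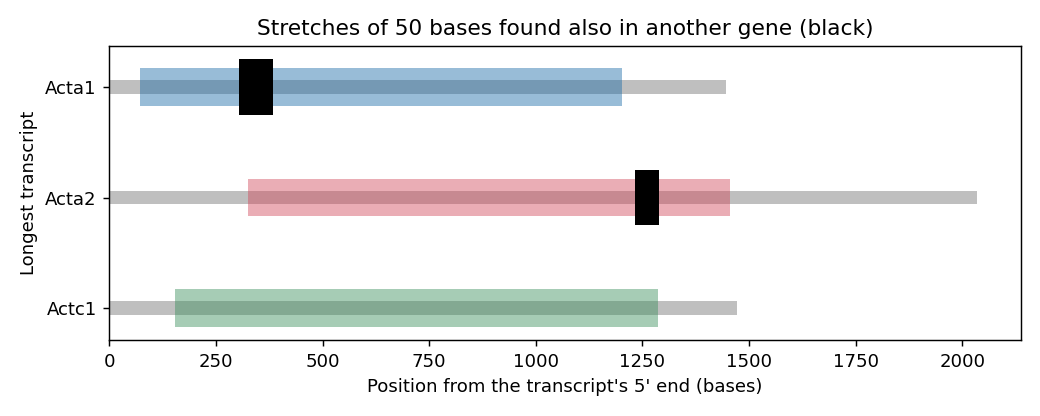
Longest annotated transcript of each alpha actin gene, in bases from its 5′ end (x axis); the grey bar is the transcript, the coloured bar its coding part, and black marks every window of 50 bases that occurs unchanged in a transcript of another gene. Shared windows fill a single short stretch in Acta1 (31 windows) and in Acta2 (7 windows), and Actc1 has none.

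The promoters are shown because the 3 genes moved in the same direction in every comparison of 2 libraries below and all carry matches to the SRF motif. Whether the motif bears on that direction was not tested. They come from the RefSeq annotation of GRCm38.p6, where each of the 3 symbols matched 1 entry, and are written 5′ to 3′ on the gene's strand. Capitals mark CArG boxes, counted here as CC, 6 bases of which at most 1 is G or C, and GG.
Acta1 (chr8:123894776-123895025): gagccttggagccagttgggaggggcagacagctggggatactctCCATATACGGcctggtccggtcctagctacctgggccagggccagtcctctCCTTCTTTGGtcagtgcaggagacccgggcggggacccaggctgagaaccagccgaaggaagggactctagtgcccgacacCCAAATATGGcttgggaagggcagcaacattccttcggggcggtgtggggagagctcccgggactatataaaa
Actc1 (chr2:114052888-114053125): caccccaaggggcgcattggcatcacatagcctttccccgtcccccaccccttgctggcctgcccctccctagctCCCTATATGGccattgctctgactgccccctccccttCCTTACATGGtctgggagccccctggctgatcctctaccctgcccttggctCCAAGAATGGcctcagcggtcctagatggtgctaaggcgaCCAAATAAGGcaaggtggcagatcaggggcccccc
Acta2 (chr19:34255438-34255467): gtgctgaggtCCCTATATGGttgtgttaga
Acta2 (chr19:34255388-34255417): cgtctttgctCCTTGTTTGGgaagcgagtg

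Acta1 had 3 such matches in the 250 bases before the RefSeq start, Actc1 had 4 and Acta2 had 2. Matches in the same window were present in 8.59% of 32851 RefSeq promoters. With the strict CArG box, whose core has no G or C, Acta1 had 1 match, 73 bases before the start, and Actc1 had 1, 47 bases before it. Acta2 had none, and 1.47% of promoters held one. The upstream Acta2 match, 84 bases before the start, has the same 10 letters as the Actc1 match 175 bases before its start. GENCODE places the stretches of Acta2 inside its first exon, which is why only 30 bases around each match are printed. For Actc1 the printed window ends where GENCODE's longest transcript begins, 12 bases before the end of the RefSeq window, so 238 of its 250 bases are shown. GENCODE has 2 Actc1 transcripts, and the other starts further upstream, so the printed window lies inside the gene's annotated span. The E-box CANNTG was matched at 2 places in Acta1, 3 in Acta2 and none in Actc1, against 66.2% of promoters with at least 1. The motif CATTCC, read by TEAD factors, was matched once in Acta1 and once in Acta2, against 12.6% of promoters. All motifs were searched on both strands, and no match of one motif overlapped that of another. A match is a description of letters and not of binding.

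Depth was similar across the libraries, with totals of 9235281 to 12362290 reads. Levels are in CPM, the reads of a gene per 1000000 reads of its library. Intervals are 95% and cover counting error only, because no group was replicated and PCR copies are not told apart. An effect of a library therefore cannot be told apart from an effect of the condition. The virus-encoded gene Twist2 had 1 and 0 reads in the GFP libraries and 15915 and 8335 reads in the Twist2 libraries, in growth and differentiation medium. The GFP libraries thus held almost no Twist2 reads, although the labels call the cells Twist2-positive. Of 7 skeletal muscle and myoblast markers 6 were in the table. Of these, 5 were at least 2-fold lower and 0 higher with Twist2 in growth medium, beside 11.5% and 4.89% of all listed genes. The same comparison in differentiation medium gave 4 lower and 1 higher, beside 23.1% and 26.6%. The higher one was Pax7, at 34.6 CPM with Twist2 against 4.01 CPM with GFP. Myod1 stood at 547 to 1184 CPM and Des, which encodes desmin, at 726 to 6503 CPM in the 4 libraries. Others were near 0 in some: Ckm, muscle creatine kinase, stood at 0.542 CPM (6 reads) and Myog at 3.52 CPM in Twist2 growth medium, and Pax7, a satellite cell factor, at 4.01 CPM in GFP differentiation medium. Myh3, embryonic myosin, ran from 5.06 CPM in Twist2 growth to 27313 CPM in GFP differentiation medium. None of 7 smooth muscle markers, 9 heart muscle markers, 4 endothelial or 4 leukocyte markers was in the table. Absence from it does not show that a gene was silent, since the table holds only genes with at least 10 CPM in 2 libraries and a 2-fold difference from GFP growth medium in at least 1 library.

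Acta2 was the most abundant alpha actin of the growing cells and Acta1 that of the differentiated GFP cells. All 3 genes were far higher after differentiation, with either virus, and all 3 were lower with Twist2 than with GFP, in either medium. The smallest of these differences was that of Acta2 in differentiation medium. As a result the make-up of the alpha actin signal differed between the libraries, and Acta2 kept the largest share of it in the differentiated Twist2 cells.

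Acta1, the skeletal muscle form, stood at 62.4 CPM (608 reads, interval 57.5 to 67.6) in GFP growth medium and 12797 CPM (118185 reads, 12724 to 12870) in GFP differentiation medium. It stood at 9.31 CPM (103 reads, 7.60 to 11.3) in Twist2 growth medium and 2381 CPM (29436 reads, 2354 to 2408) in Twist2 differentiation medium. By CPM, which is not corrected for length, it ran from rank 1385 of 3760 listed genes to rank 4 in the GFP cells. In the Twist2 cells it ran from rank 3343 to rank 23. The differentiated GFP library was the highest and the growing Twist2 library the lowest, and no counting intervals overlapped.

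Actc1, the heart form, had the lowest level of the 3 in each library and the same order of libraries as Acta1. It stood at 27.4 CPM (267 reads, 24.2 to 30.9) in GFP growth and 5225 CPM (48258 reads, 5179 to 5272) in GFP differentiation medium. In the Twist2 cells it stood at 4.97 CPM (55 reads, 3.74 to 6.47) in growth and 1268 CPM (15670 reads, 1248 to 1288) in differentiation medium. Its low count in growing Twist2 cells makes the comparisons with that library the least precise.

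Acta2, the smooth muscle form, stood at 361 CPM (3520 reads, 349 to 373) in GFP growth and 7948 CPM (73398 reads, 7890 to 8005) in GFP differentiation medium. It stood at 113 CPM (1250 reads, 107 to 119) in Twist2 growth and 5050 CPM (62431 reads, 5011 to 5090) in Twist2 differentiation medium. By CPM it had rank 4 among the listed genes of differentiated Twist2 cells and rank 8 in differentiated GFP cells. The order of libraries was the same as for the other two genes, but the differentiated libraries stood closer together.

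**Figure D2:**
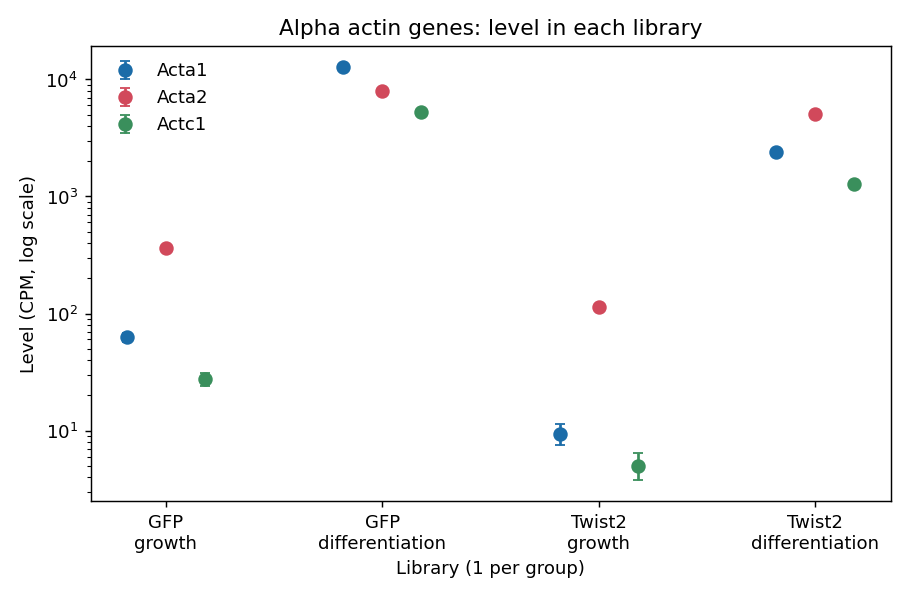
Level of Acta1, Acta2 and Actc1 in CPM (y axis, log scale) in the 4 libraries (x axis, 1 library per group); bars are 95% counting intervals and are smaller than the symbol where not seen. Acta2 is highest in 3 libraries and Acta1 in the differentiated GFP library, at 12797 CPM.

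Per kilobase of the longest transcript the order of the genes was the same as in CPM. In GFP growth medium Acta2 stood at 178 CPM per kb, Acta1 at 43.2 and Actc1 at 18.6. In differentiated GFP cells Acta1 stood at 8850 CPM per kb, Acta2 at 3905 and Actc1 at 3547, so that the latter pair nearly met. In Twist2 growth medium the values were 55.5 for Acta2, 6.44 for Acta1 and 3.37 for Actc1. In differentiated Twist2 cells they were 2482 for Acta2, 1647 for Acta1 and 861 for Actc1. Neighbours in each order had counting intervals that did not overlap.

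Differentiation of GFP cells is the reference response of these myoblasts. Acta1 was 205-fold higher in differentiation than in growth medium (interval 189 to 222), Actc1 191-fold (169 to 216) and Acta2 22.0-fold (21.3 to 22.8). On the scale log2(CPM + 1), used below for all genes, the differences were 7.66, 7.52 and 4.46, which ranked 11th, 16th and 104th among the 3760 genes. The median listed gene stood at -0.40. Of all genes that reached 10 CPM in 1 of these libraries, 32.6% passed the 2-fold threshold upwards and 40.9% downwards, and all 3 alpha actins were among the higher ones. The 3 genes together took 0.0451% of the reads before and 2.60% after differentiation.

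In Twist2 cells the end levels were lower than in GFP cells. Acta1 was 256-fold higher in differentiation than in growth medium (interval 211 to 314), Actc1 255-fold (196 to 339) and Acta2 44.7-fold (42.3 to 47.3). On the log2(CPM + 1) scale these were 7.85, 7.73 and 5.47, at ranks 5, 6 and 48. Among all genes counted 26.5% were at least 2-fold higher there, and the median of listed genes was -0.22. The 3 genes took 0.0127% of the reads before and 0.870% after.

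The 4 comparisons share libraries pairwise, so their values are given side by side and not as independent evidence. The difference of the responses, Twist2 minus GFP on the log2(CPM + 1) scale, was 0.20 for Acta1 and 0.21 for Actc1, beside a median of 0.19 over all listed genes. From the reads alone the differences were 0.32 for Acta1 (interval 0.02 to 0.62) and 0.42 for Actc1 (0.00015 to 0.84). Both kept a positive sign under 2 of 6 alternatives and turned negative under the other 4. They were -0.19 and -0.34 with a pseudocount of 5 CPM, -0.09 and -0.06 with median-of-ratios size factors, and -0.07 and -0.05 with median centring. When libraries were scaled to the reads that fall outside the 3760 listed genes (the outside-table scaling), they were -0.35 and -0.34. The sign thus depended on the pseudocount and the scaling, and no direction of this difference is given for Acta1 and Actc1. Their intervals from the reads were both positive but cover counting error only. For Acta2 the difference was 1.01 (1.02 from the reads, interval 0.93 to 1.12), at the edge of the 2-fold threshold, and 25.5% of listed genes were at or above that threshold. It had the same sign but fell below that threshold under other scalings, down to 0.47.

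Twist2 in growth medium went with lower levels of all 3 genes in cells that had not been moved to differentiation medium. Acta1 was 6.70-fold lower than in GFP cells (interval 5.43 to 8.34), Actc1 5.51-fold (4.11 to 7.51) and Acta2 3.2-fold (3.0 to 3.41). The log2(CPM + 1) ratios were -2.62, -2.25 and -1.67, and Acta1 was the 50th lowest, Actc1 the 82nd and Acta2 the 162nd of 3760. Of the genes counted 10.6% were at least 2-fold lower and 5.21% higher, and all 3 alpha actins were among them. In bulk RNA, fewer cells that express a gene and less of its RNA per cell cannot be told apart.

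Among differentiated cells the genes separated. Acta1 was 5.37-fold lower with Twist2 than with GFP (interval 5.31 to 5.44) and Actc1 4.12-fold lower (4.05 to 4.20), but Acta2 was 1.57-fold lower (1.56 to 1.59). The log2(CPM + 1) ratios were -2.43, -2.04 and -0.65. Acta2 stood 1307th from the lowest of 3760 genes, below the table's median of -0.06. Acta1 and Actc1 passed the 2-fold threshold and Acta2 did not, beside 25.2% of genes at least 2-fold lower and 25.4% higher. With libraries scaled to reads outside the table, which moved the median gene by -0.57, the Acta2 ratio was -1.25.

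Ratios between genes within 1 library do not depend on how that library is scaled. Acta1 and Actc1 stayed in nearly the same proportion while each moved more than 100-fold. There were 2.28 Acta1 reads per Actc1 read in GFP growth medium (interval 1.97 to 2.64) and 2.45 in GFP differentiation medium (2.42 to 2.48). In the Twist2 cells there were 1.87 in growth medium (1.34 to 2.65) and 1.88 in differentiation medium (1.84 to 1.92). The proportion changed 1.08-fold on differentiation of GFP cells (interval 0.931 to 1.24) and 1.0-fold in Twist2 cells (0.723 to 1.39). Between the differentiated libraries it was 1.30-fold lower with Twist2 (1.28 to 1.33), beyond counting error, and in growth medium 1.22-fold lower (0.850 to 1.74).

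Acta2 did not keep step with either gene. There were 5.79 Acta2 reads per Acta1 read in GFP growth medium (interval 5.31 to 6.32) and 0.621 after differentiation (0.615 to 0.627), 9.32-fold lower (8.55 to 10.2). In the Twist2 cells there were 12.1 before (9.92 to 15.0) and 2.12 after (2.09 to 2.15), 5.72-fold lower (4.68 to 7.0). The Acta2 to Acta1 ratio was thus 2.10-fold higher with Twist2 in growth medium (1.68 to 2.61) and 3.42-fold higher in differentiation medium (3.36 to 3.47). The Acta2 to Actc1 ratio went the same way, 1.72-fold higher (1.28 to 2.32) and 2.62-fold higher (2.57 to 2.67).

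**Figure D3:**
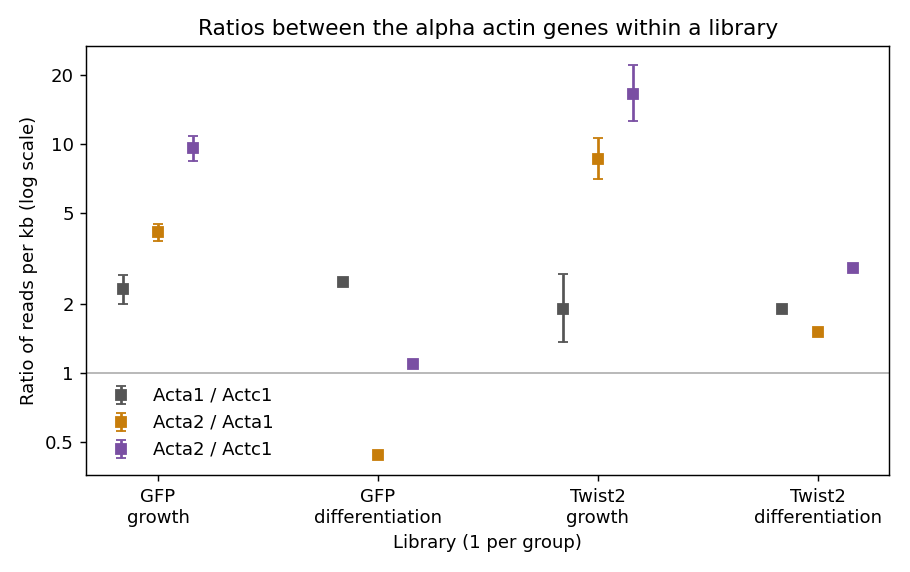
Ratio of reads per kb between pairs of alpha actin genes (y axis, log scale; the grey line marks equality) in each library (x axis, 1 per group); bars are 95% counting intervals. The ratio of Acta1 to Actc1 lies between 1.91 and 2.49 in all 4 libraries, and the ratio of Acta2 to Acta1 ranges from 0.441 to 8.62.

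Shares of the reads of the 3 genes show the same in another form. Acta2 held 80.1% of them in GFP growth medium (exact binomial interval 78.9% to 81.3%) and 88.8% in Twist2 growth medium (87.0% to 90.4%). After differentiation it held 30.6% in GFP cells (30.4% to 30.8%) and 58.1% in Twist2 cells (57.8% to 58.4%). Acta1 held 13.8% and 49.3% in the GFP libraries, and 7.32% and 27.4% in the Twist2 libraries. Actc1 held 6.08%, 20.1%, 3.91% and 14.6% in GFP growth, GFP differentiation, Twist2 growth and Twist2 differentiation medium. Differentiated Twist2 cells thus had an alpha actin make-up between that of growing and that of differentiated GFP cells.

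**Figure D4:**
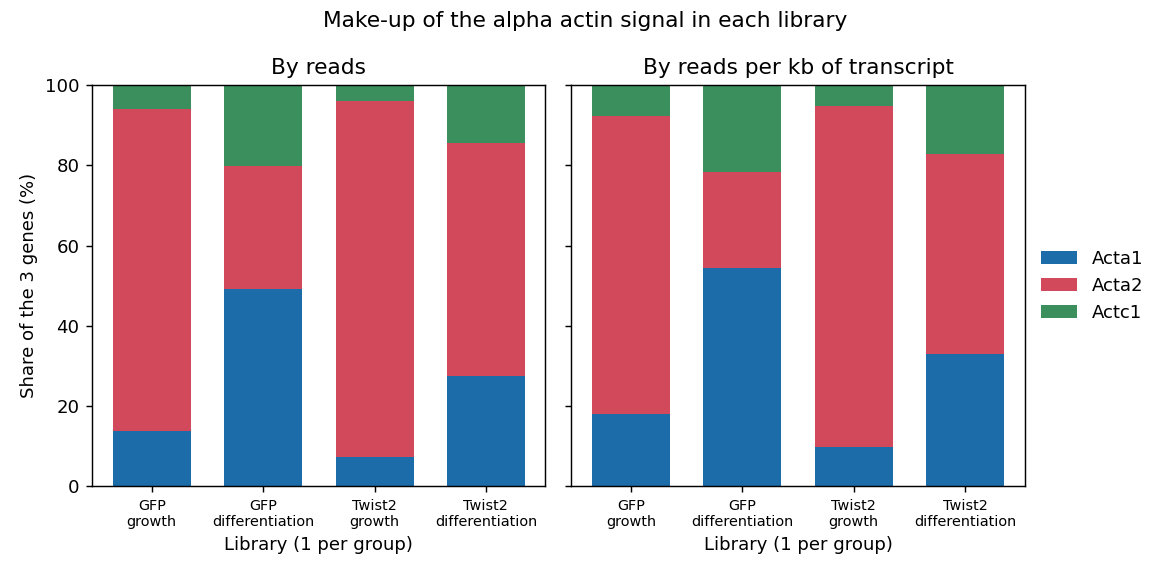
Share of each gene among the 3 alpha actin genes (y axis, percent) in each library (x axis, 1 per group), by reads (left) and by reads per kb of the longest transcript (right). Acta2 fills most of both growth medium bars, and after differentiation 30.6% of reads in GFP and 58.1% in Twist2 cells.

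The cytoplasmic actins moved against the alpha actins on differentiation. Actb, which encodes beta actin, stood at 2362 CPM in GFP growth, 670 CPM in GFP differentiation, 2888 CPM in Twist2 growth and 1540 CPM in Twist2 differentiation medium. Actg1, which encodes cytoplasmic gamma actin, stood at 390, 74.1, 415 and 212 CPM in the same order. Both were at least 2-fold lower after differentiation in GFP cells, and their log2(CPM + 1) ratios were -0.91 and -0.96 in Twist2 cells. Alpha actin accounted for 14.1% of the reads of these 5 actin genes in GFP growth medium (interval 13.7% to 14.5%) and 97.2% in GFP differentiation medium (97.1% to 97.3%). In the Twist2 cells it accounted for 3.71% (3.52% to 3.90%) and 83.2% (83.0% to 83.4%). In differentiation medium Actb and Actg1 were higher with Twist2, by 1.20 and 1.5 on the log2(CPM + 1) scale, though neither reached 2-fold under the scaling to reads outside the table. Actg2 and Actbl2 were not analysed here.

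The partners of actin in the thin filament were mostly higher after differentiation and lower with Twist2. Of 26 names on the list 21 were in the table. In GFP differentiation 19 of the 21 were at least 2-fold higher and 2 lower (median log2(CPM + 1) ratio 3.91), where 32.1% of all 3760 genes were higher and 41.1% lower with no minimum CPM. The subunits of troponin, the calcium switch of the filament, led with Tnnc2 (7.83), Tnni1 (7.30) and Tnnc1 (7.17), beside Actn2 (9.66, from 5 reads in growth medium), an alpha actinin that anchors actin at the Z-disc. Tpm4, a tropomyosin of non-muscle cells (-3.44), and Tmod3, a widely expressed cap of filament ends (-2.08), stood against them. In Twist2 cells 18 were higher and 2 lower (median 4.45, from 3.66 to 5.17 over the alternatives), with 26.2% and 24.5% of all genes, led again by Tnnc2 (8.26), Tnni1 (7.29) and Tnnc1 (7.21).

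Twist2 in growth medium went with 12 of the 21 thin filament genes at least 2-fold lower and 0 higher (median -1.94, or -1.03 with a pseudocount of 5 CPM), where 11.5% of all genes were lower and 4.89% higher. The lowest were Lmod3 (-3.87), a leiomodin that starts actin filaments, Klhl41 (-3.57), Tnnt3 (-3.34) and Tnnt1 (-3.29), the latter pair being fast and slow troponin T. In differentiation medium 17 were lower and 1, Tpm4 (2.39), was higher (median -1.68), beside 23.1% and 26.6% of all genes. Acta1 at -2.43 and Actc1 at -2.04 lay below that median and Acta2 at -0.65 above it.

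The list of smooth muscle contractile genes, to which Acta2 belongs by function, was mixed. Of 18 names 8 were in the table, and 4 were at least 2-fold higher and 3 lower in GFP differentiation (median 1.01). Tagln, which encodes transgelin (3.74), and Des (2.11) were higher, and Tgfb1i1 (-2.17) and Cald1, which encodes caldesmon (-2.07), were lower. Beside these and the following lists stand the same shares of all genes as above, 32.1% higher and 41.1% lower here. In Twist2 cells 4 were higher and 1 lower (median 0.91; all genes 26.2% and 24.5%), led by Myl9 (3.11), a regulatory light chain, and Tagln (2.54). With Twist2 in growth medium Tagln (1.65) was higher and Myl9 (-1.56), Synpo2 (-1.13) and Des (-1.05) were lower (all genes 4.89% higher, 11.5% lower), and median-of-ratios size factors turned 1 higher and 3 lower into 3 higher and 1 lower. In differentiation medium Cald1 (1.5), Tgfb1i1 (1.44) and Cnn2 (1.19), a calponin, were higher and Des (-1.15) lower (all genes 26.6% and 23.1%), but 0 were higher and 3 lower under the outside-table scaling, with a median of -0.10 in place of 0.49.

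**Figure D5:**
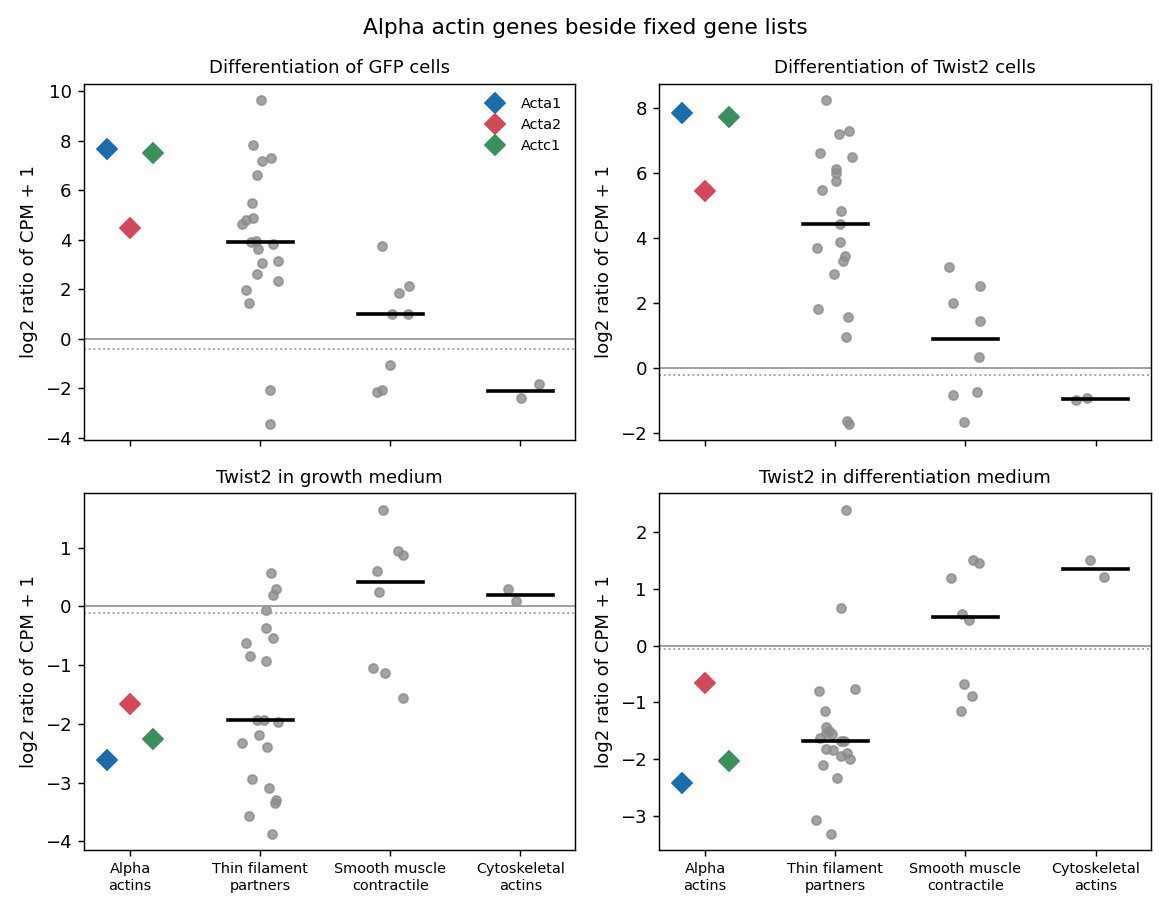
Log2 ratio of CPM + 1 (y axis) in the 4 comparisons (panels) for the 3 alpha actin genes (diamonds), 21 thin filament partners, 8 smooth muscle contractile genes and 2 cytoskeletal actins (grey points; black bars are medians; the dotted line is the median of all 3760 genes). In differentiation medium Acta2 lies at -0.65, above the thin filament median of -1.68.

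Genes of the SRF pathway and its targets, an actin-regulated route, were mixed. Of 23 names 17 were in the table; Srf itself was not analysed here. In GFP differentiation 6 were at least 2-fold higher and 7 lower (median 0.53), shares near the 32.1% and 41.1% of all genes, with Fhl1, a muscle LIM protein (4.23), opposed by Flna, the actin cross-linker filamin A (-4.34). The counts were 10 and 4 under the outside-table scaling. Abra, an activator of the pathway in striated muscle, went from 0.308 CPM (3 reads) to 120 CPM. In Twist2 cells 8 were higher and 4 lower (median 0.65; all genes 26.2% and 24.5%), with the early response genes Fos (3.01) and Ier2 (2.38) among them; 1 was lower under the outside-table scaling and 2 with median centring. With Twist2 in growth medium, where 4.89% of all genes were higher and 11.5% lower, 2 were higher, Tagln and Ctgf (1.33), and 1 lower, Ankrd1 (-1.30), which was joined by 1 other with a pseudocount of 0.1 CPM. In differentiation medium 9 were higher and 3 lower (median 1.06; all genes 26.6% and 23.1%), with Flna (3.52) and Fhl1 (-2.45) at the ends, but 2 were higher and 5 lower under the outside-table scaling.

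Of 13 muscle transcription factors 10 were in the table. In GFP differentiation 6 were at least 2-fold higher and 2 lower (median 1.64, all genes 32.1% and 41.1%). The largest rise was that of Mef2c, from 0.513 CPM (5 reads) to 264 CPM. Next came Myog, which encodes myogenin (3.80), Tead4 (3.75) and the muscle methyltransferase gene Smyd1 (3.27). Other scalings left 1 or 0 lower. In Twist2 cells 5 were higher and 0 lower (median 1.06; all genes 26.2% and 24.5%), led by Myog (6.39) and Smyd1 (5.56). With Twist2 in growth medium 5 were lower and 0 higher (median -1.02; all genes 11.5% and 4.89%), led by Myog (-4.10), Smyd1 (-3.35) and Mef2a (-1.95); 3 were lower with size factors. Among differentiated cells 4 were lower and 0 higher (median -0.95; all genes 23.1% and 26.6%), led by Mef2c (-4.59, with 264 CPM under GFP against 10.03 CPM under Twist2) and Tead4 (-1.95), and 7 were lower with median centring or the outside-table scaling.

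For proteins that assemble and turn over actin filaments, of 24 names 14 were in the table, and 6 were at least 2-fold higher and 6 lower in GFP differentiation (median -0.57, or 0.22 under the outside-table scaling), near the 32.1% and 41.1% of all genes. Tmod1, the muscle filament cap (4.64), and Cap2, a muscle form of cyclase-associated protein (4.58), were higher, whereas Capg, a capping protein (-3.91), and Cap1, the general form (-3.07), were lower. In Twist2 cells 4 were higher and 1, Diap3 (-3.56), was lower (median -0.09; all genes 26.2% and 24.5%). With Twist2 in growth medium 5 were lower and 0 higher (median -0.25, all genes 11.5% and 4.89%), led by Lmod3, and 3 were lower with a pseudocount of 5 CPM. Lmod3 and Tmod1, both among the lower genes, are also on the thin filament list. In differentiation medium 5 were higher and 6 lower (median -0.70; all genes 26.6% and 23.1%), with Capg (3.36) and Cap1 (2.72) at the upper end. Of 15 genes of actin folding and modification 2 were in the table. Unc45b, a muscle chaperone best known for myosin, stood at 10.6 CPM in GFP growth, 393 CPM in GFP differentiation, 0.271 CPM (3 reads) in Twist2 growth and 103 CPM in Twist2 differentiation medium. Hsp90aa1, a general chaperone, had log2(CPM + 1) ratios of -1.28 in GFP and -1.20 in Twist2 differentiation.

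The genes most like each alpha actin were ranked by the root mean square difference of log2(CPM + 1), centred on the gene's mean, over the 4 libraries. Nearest to Acta1 among 3759 genes was Actc1 (0.20), then Mybph, a myosin binding protein (0.23), Tnni1 (0.25), Myl1, a myosin light chain (0.41), and Tnnc1 (0.42). Nearest to Actc1 were Acta1 (0.20), Tnni1 (0.20), Mybph (0.22), Tnnc1 (0.25) and Tnnc2 (0.30). For Acta2 the nearest were Tmem38a, a cation channel of the sarcoplasmic reticulum (0.11), Cacng1, a calcium channel subunit (0.19), Cap2 (0.21), Pgam2, a muscle glycolytic enzyme (0.28), and Pygm, muscle glycogen phosphorylase (0.34). Acta2 was the 75th nearest to Acta1 and the 66th nearest to Actc1, and the 33rd and 32nd with a pseudocount of 5 CPM. Tmem38a stood at 39.7, 754, 11.4 and 480 CPM in GFP growth, GFP differentiation, Twist2 growth and Twist2 differentiation medium. Values over 4 libraries are a description, and likeness depends on the pseudocount, since 4 of 5 genes for Acta1, 2 of 5 for Acta2 and 5 of 5 for Actc1 were kept at 5 CPM.

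Markers of other cells differed between the libraries, in both directions. Of 10 fibroblast and myofibroblast markers 3 were in the table, Col3a1, Dcn and Col1a2, and none was at 0. Their summed level was 827 CPM in GFP growth, 566 CPM in GFP differentiation, 3070 CPM in Twist2 growth and 8818 CPM in Twist2 differentiation medium. Nearly all of it was Col3a1, a collagen, at 807, 559, 3043 and 8750 CPM, while Dcn, which encodes decorin, stood at 1.95, 1.19, 10.6 and 64.6 CPM and Col1a2 at 18.6, 5.74, 17.0 and 3.15 CPM. Col3a1 and Dcn were thus higher with Twist2 in both media and Col1a2 was not. Of 7 pericyte markers 4 were in the table, Rgs5, Abcc9, Mcam and Notch3, with a summed level of 226, 71.8, 176 and 345 CPM. Rgs5 stood at 51.7, 0.108, 85.1 and 4.69 CPM, and Notch3 at 126, 4.98, 71.5 and 313 CPM. Mcam stood at 48.1, 15.7, 19.0 and 7.60 CPM, lower with Twist2 in either medium. Abcc9 had 3 reads and 1 read in growth medium under GFP and Twist2, and 51 CPM against 20.0 CPM in differentiation medium. The part of such markers in the level of Acta2 was not tested.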

How the data were processed

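The authors deposited 1 table of CPM values, the reads of a gene per 1000000 reads of the library, for 3760 genes in 4 libraries. TopHat2 2.0.0, DESeq2 1.6.3 and the builds GRCm38 and mm10 are named in the submitters' processing notes without a role; the read counter, its annotation and its strand mode are not stated there. Per the file headers the table also holds the authors' log2 ratios against GFP growth medium. They equalled log2 of (CPM + 1) ratios within 1.27e-11 and were used only for that check. All 3760 genes reached 10 CPM in 2 or more libraries and differed from GFP growth medium by 1 or more in an authors' log2 ratio, as tested on the values, so percentages of listed genes called 2-fold different are those of a selected table.

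Reads and library totals were recovered here from the CPM values, all of which were whole multiples of 1 read within 0.01 reads. The totals, 9744075, 9235281, 11068073 and 12362290 reads in GFP growth, GFP differentiation, Twist2 growth and Twist2 differentiation medium, set the precision. Each group has 1 sample, so no test between groups was possible and no p-value is given. Ratios of 2 libraries used a pseudocount of 1 CPM and a 2-fold threshold, for all genes that reached 10 CPM in either library and for gene lists with no minimum. The intervals of 95% are exact Poisson for levels, exact conditional binomial for ratios, exact binomial (Clopper-Pearson) for shares, and a normal approximation of the log ratio from the reads for differences of responses and changes of a ratio between genes. The calculation was tested on simulated data. Alternatives were pseudocounts of 0.1 and 5 CPM, a minimum of 50 CPM, median-of-ratios size factors, median centring, scaling to reads outside the table, totals without the 3 genes, and shares per transcript or exon length. The named genes are the 3 members, the 5 genes nearest to each by pattern, up to 4 members of each list with the largest absolute ratio plus up to 2 against its median, the check genes Twist2, Myod1 and Myog, and the cell type markers; ratios of list members resting on 5 or fewer reads were left out, apart from that of Actn2. The members and lists were chosen with earlier results of these data known. Some genes stand on more than 1 list, so counts of different lists are not independent. Examples are Tmod1, Lmod3 and Cfl2 (thin filament and turnover) and Tagln, Tgfb1i1, Actb and Actg1 (SRF and another list). Des is on the smooth muscle contractile list and among the skeletal muscle markers. Some items are not reported here. Python 3.11.15, pandas 2.3.3 and scipy 1.17.1 were used.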

Additional observations from a re-analysis of the deposited data

Results flagged for a closer look

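Notch3, a receptor gene on the pericyte list, was lower after differentiation in GFP cells (log2(CPM + 1) ratio -4.41) and higher in Twist2 cells (2.11). Among the genes named here only Notch3 moved at least 2-fold in opposite directions, and listed genes outside that set were not screened. The difference of 6.52 was not tested because each group has 1 library.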

How the results depend on the processing

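The 3 genes kept their direction in the 4 comparisons of libraries under both other pseudocounts and all 4 other scalings, and 84 of 90 recomputed ratios of the members (differences of responses included) stayed on the same side of the 2-fold threshold. The exceptions were those of Acta2. Its ratio in differentiation medium was -1.25 when libraries were scaled to reads outside the table. Its difference of responses was 0.98 with a pseudocount of 5 CPM, 0.71 with size factors, 0.47 with the outside-table scaling, 0.74 with median centring and 0.99 with totals that leave out the 3 genes.

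Per kb of the longest transcript the shares in GFP growth, GFP differentiation, Twist2 growth and Twist2 differentiation medium were 18.0%, 54.3%, 9.85%, 33.0% for Acta1, 74.2%, 24.0%, 85.0%, 49.7% for Acta2 and 7.77%, 21.8%, 5.17%, 17.2% for Actc1. Per kb of the exon union they were 18.3%, 54.9%, 10.005%, 33.5%, then 74.1%, 23.8%, 84.9%, 49.6%, and 7.63%, 21.3%, 5.07%, 16.9%. Coding length left the shares as by reads, because it is equal.

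Counts of listed genes past 2-fold moved more. As reported, 1511 were lower in GFP differentiation, 984 higher and 911 lower in Twist2 differentiation, 183 higher and 372 lower with Twist2 in growth medium, and 873 higher and 867 lower in differentiation medium. With a minimum of 50 CPM, 709 were lower in GFP differentiation, 635 higher and 475 lower in Twist2 differentiation, 96 higher and 212 lower with Twist2 in growth medium, and 415 higher in differentiation medium. This minimum left each ratio unchanged and dropped the genes below 50 CPM in both libraries, so these counts come from fewer genes. Median centring gave 957 lower in GFP differentiation and size factors gave 276 higher with Twist2 in growth medium. The outside-table scaling gave 672 lower in GFP differentiation, and 520 higher and 1555 lower with Twist2 in differentiation medium. The share of higher among called genes, 44.4%, 51.9%, 33.0% and 50.2% in the order of the comparisons above, was 68.9%, 66.1%, 29.5% and 25.1% under that scaling, 56.8%, 54.3%, 52.3% and 47.4% with size factors and 58.4%, 59.5%, 41.1% and 41.7% with median centring. These scalings moved the median gene by up to 0.78, 0.34 and 0.39. Under the outside-table scaling the median of the SRF list was 1.32 in GFP differentiation and 0.46 with Twist2 in differentiation medium, and that of the transcription factors 2.44 and -1.55. The cause was not tested. No paired analysis was possible because each group has 1 sample, and leaving out a replicate was not possible for the same reason.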
